A study of Sus scrofa with 24 samples.

Results

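Beta-oxidation breaks fatty acids down in mitochondria, and in part in peroxisomes, and hands the electrons it releases to the respiratory chain. Its genes and regulators were followed as a list of 38 gene symbols across the back muscle of 24 pigs. The list was drawn up by function: enzymes that activate and import fatty acids, enzymes of the cycle itself, the proteins that take up its electrons, and the factors known to control these genes. Of the 38 symbols, 35 were found among the 12017 genes of the deposited table, as 73 transcripts, and ACADL, ACOT2 and MLYCD are not analysed here. All 35 had a mean of at least 0.5 FPKM (fragments per kilobase of transcript, scaled to library size, a level corrected for length) and entered the tests.

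The animals were F1 crosses of Duroc and Luchuan pigs, taken from 265 offspring of 8 boars and 112 sows, kept on the same feed and farm and slaughtered at 210 ± 6 days. Longissimus dorsi, a long back muscle, was sampled 25 minutes after death, and its polyA RNA was sequenced as read pairs of 150 bases. By the labels, 12 of the animals had a high and 12 a low content of intramuscular fat (IMF), which lies between and within the muscle fibres. The fat content and sex of each animal were not used here. Animals are numbered within each class in accession order, and each library is 1 animal. The animal identifiers begin with 1 of 2 runs of 4 digits, called set A and set B here, with 6 high and 6 low IMF animals each. What these digits stand for is not given. High IMF animals 4 and 8, low IMF animals 2 and 8, and low IMF animals 6 and 7 share their first 9 digits. All of these are in set A, and they were fitted as independent animals unless stated.

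A fatty acid enters the pathway as an acyl-CoA, made by acyl-CoA synthetases. The carnitine shuttle (CPT1, CPT2) moves long chains across the mitochondrial membranes, and CPT1 is blocked by malonyl-CoA, the product of acetyl-CoA carboxylase. Each turn of the cycle then runs through dehydrogenation, hydration, a further dehydrogenation and thiolysis. In muscle the transcription of these genes is known to be driven by PPAR receptors, the estrogen-related receptor ESRRA and their coactivators PGC-1 alpha (PPARGC1A) and PGC-1 beta (PPARGC1B). PDK4 restrains pyruvate oxidation and is known as a marker of a shift from glucose to fatty acids as fuel.

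Summed FPKM was 351119 to 415572 per library and the estimated depth 32.9 to 40.8 M reads (M for mega). At that depth, a transcript 1 kilobase long gains 0.0245 to 0.0304 FPKM from 1 read. Low IMF animal 10 and high IMF animal 7 stood apart: their 10 most abundant genes took 18.5% and 20.2% of FPKM, and those of every other library 24.7% or more. All 10 skeletal muscle markers were listed, led by the actin gene ACTA1 and the creatine kinase gene CKM, and 1 of 6 liver markers was (APOA1). The adipocyte markers summed to 158 to 323 FPKM (median 215) in high and 105 to 238 FPKM (median 143) in low IMF muscle. Of 12 adipocyte markers tested, 9 were higher in high IMF muscle at an unadjusted p under 0.05, against 6.79% of all genes. LEP and TUSC5 passed Benjamini-Hochberg adjustment in limma, where 0.051% of all genes did. LEP had means of 0.888 and 0.175 FPKM in high and low IMF muscle, and ADIG, among the 9, of 0.944 and 0.185 FPKM. Their low IMF means lie under the 0.5 FPKM that a gene needed to be tested. Both were therefore tested only through their high IMF values. The markers outside the 9, CFD, PLIN4 and PLIN1, had log2 fold changes, high minus low IMF, of 0.17, 0.19 and -0.09. The slow fibre markers summed to 2788 to 6762 FPKM (median 4607) in high and 1514 to 8013 FPKM (median 4767) in low IMF muscle, and none of 11 was called. In whole muscle, fewer cells of a type and less RNA per cell cannot be told apart.

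Some enzymes of the cycle and of electron transfer held the highest levels of the list. By mean FPKM over the 24 animals, the medium-chain dehydrogenase ACADM stood highest at 86.4 ± 27.4 (SD, n = 24), followed by the very-long-chain dehydrogenase ACADVL at 73.1 ± 16.8 and the electron transfer flavoprotein subunit ETFB at 68.6 ± 13.4. These neighbours lay within each other's SD. HADHB and HADHA, the subunits of the mitochondrial trifunctional protein, stood at 48.7 ± 13.3 and 41.3 ± 9.09, and the synthetase ACSL1 at 43.7 ± 15.9. Of the carnitine shuttle, CPT2 stood at 7.69 ± 3.56 FPKM, CPT1B, the muscle form of CPT1, at 5.99 ± 3.0 and CRAT at 38.2 ± 47.0. Other enzymes of the cycle stood as low as CPT1B or lower, with ACAA2 at 5.54 ± 1.81 and HSD17B10 at 3.71 ± 1.11. The lowest levels were those of PPARGC1B, ACAA1, ACSL5, CPT1A and PPARGC1A, each with a mean under 2 FPKM. Together the 35 genes took 0.128% to 0.303% of the summed FPKM of a library, at 0.208 ± 0.0544% in high and 0.174 ± 0.0416% in low IMF muscle (SD, n = 12 each).

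The main comparison asked which of these genes differ between muscle of high and low IMF. No gene of the list passed the test across all genes, in either direction (limma on log2(FPKM + 1), Benjamini-Hochberg threshold of 0.05 over 11757 genes), where the share called over all genes was 0.051%. At an unadjusted p under 0.05, 7 of 35 genes were higher in high IMF muscle, against 6.79% of all genes, and 0 were lower, against 0.893%. The fitted difference was positive for 27 of 35, and it was positive for 73.4% of all genes. Its median was 0.16 on the log2 scale for the list and 0.08 for all genes. When libraries were scaled by the trimmed mean of M values (TMM), the median of all genes moved to -0.0012, and 49.7% of them were positive. Of the list, 24 of 35 genes stayed positive with a median of 0.07. Under that scaling only ACADM had an unadjusted p under 0.05, where 2.77% of all genes were higher at that p. None of the list was called. With 1 animal left out, the 7 genes became 2 (without high IMF animal 5), 3 or 4 (without high 7, 8 or 12 or low 2, 4, 8 or 11) or 10 (without low 10), and 5 to 8 otherwise. The share over all genes was not taken for these fits. Without both low 10 and high 7, 7 genes of the list and 11.4% of all genes were higher at that p.

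**Figure D1:**
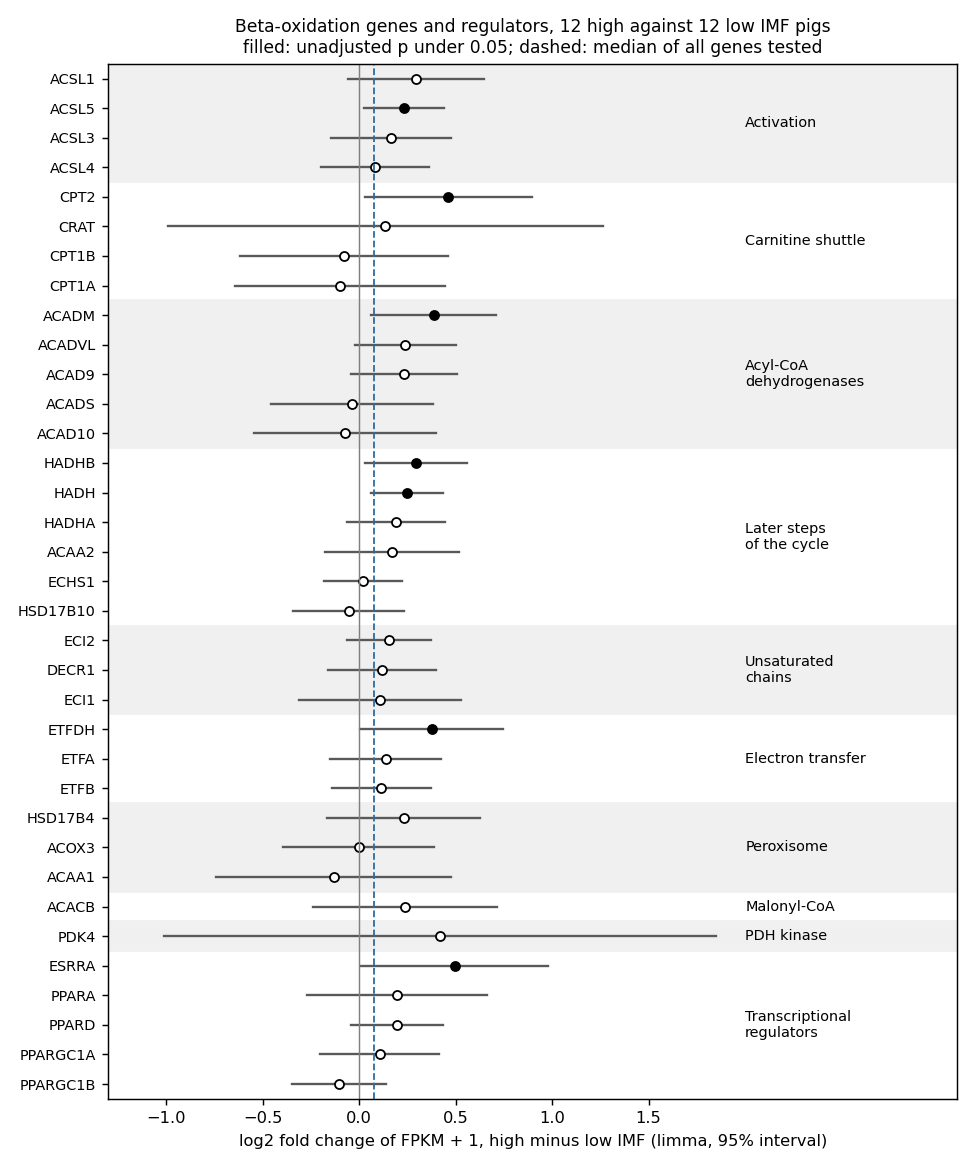
Log2 fold change of FPKM + 1, high minus low IMF, for the 35 genes by their step in the pathway, with 95% intervals from limma (12 animals per class). Filled points mark the 7 genes with an unadjusted p under 0.05, and the dashed line marks the median of all genes tested, 0.08.

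Among the acyl-CoA synthetases, which activate fatty acids, all 4 differences were positive and ACSL5 had an unadjusted p under 0.05. ACSL5 was low in this muscle, at 1.39 to 2.45 FPKM in high IMF (median 1.77) and 0.620 to 2.28 FPKM in low IMF animals (median 1.34). The low IMF median was exceeded by all 12 high IMF animals, a pattern seen in 1.68% of all genes, although the classes overlapped. Its log2 fold change was 0.23 (SE 0.101, limma p = 0.0292, adjusted p = 0.608). ACSL1, the main synthetase of muscle, ranged from 29.7 to 84.4 FPKM in high (median 41.7) and from 27.2 to 78.3 FPKM in low IMF animals (median 34.9), so that both classes covered nearly the same range. Its log2 fold change was 0.29 (SE 0.170, limma adjusted p = 0.699). ACSL3 and ACSL4, the latter a synthetase with a preference for arachidonic acid, had log2 fold changes of 0.16 and 0.08, and that of ACSL4 turned to -0.013 under TMM scaling.

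Within the carnitine shuttle 2 of 4 fitted differences were positive. CPT2, the transferase of the inner membrane, ranged from 4.76 to 15.3 FPKM in high IMF (median 8.03) and from 3.49 to 11.6 FPKM in low IMF animals (median 5.03). Of the low IMF animals, 6 lay below the lowest high IMF animal, and 4 high IMF animals lay above the highest low one. The fitted ratio of CPT2, high over low IMF, was 1.38 (log2 fold change 0.46, SE 0.211, limma p = 0.0375, adjusted p = 0.627). CPT1B, which carries out the malonyl-CoA-sensitive first step in muscle, ranged from 1.77 to 11.5 FPKM in high (median 5.87) and from 2.15 to 10.8 FPKM in low IMF animals (median 5.11), with a log2 fold change of -0.08 (SE 0.263, 95% interval -0.62 to 0.46). CPT1A, the liver form, reached 3.60 FPKM in high (median 1.28) and 3.77 FPKM in low IMF muscle (median 1.57) and is listed at 0 in 4 animals. CRAT, which exchanges short acyl groups between CoA and carnitine, had a log2 fold change of 0.14 with an SE of 0.549.

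Of the acyl-CoA dehydrogenases, which catalyse the opening step of each turn, ACADM had the smallest p. It ranged from 66.9 to 142 FPKM in high IMF (median 88.1) and from 45.3 to 135 FPKM in low IMF animals (median 67.8) and 11 of 12 high IMF animals exceeded the low IMF median. Its log2 fold change was 0.39, a ratio of 1.31 (SE 0.157, limma p = 0.0211, adjusted p = 0.560). Low IMF animal 10, which also stood apart by the share of its most abundant genes, had the highest ACADM value of its class.

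ACADVL, which handles the longest chains, ranged from 51.3 to 100.3 FPKM in high (median 86.3) and from 50.4 to 105 FPKM in low IMF animals (median 60.7). The medians lay apart while the ranges were almost equal, and the log2 fold change was 0.24 (SE 0.128, limma adjusted p = 0.670). ACAD9, also needed to assemble respiratory complex I, ranged from 1.92 to 4.24 FPKM in high (median 3.32) and from 1.15 to 4.28 FPKM in low IMF animals (median 2.38), with a log2 fold change of 0.23 (SE 0.134, limma adjusted p = 0.695). ACADS, the short-chain enzyme, and ACAD10 were level between the classes, at 21.4 ± 7.06 against 22.6 ± 8.85 and at 2.12 ± 1.28 against 2.20 ± 1.17 FPKM in high and low IMF muscle (SD, n = 12 each).

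**Figure D2:**
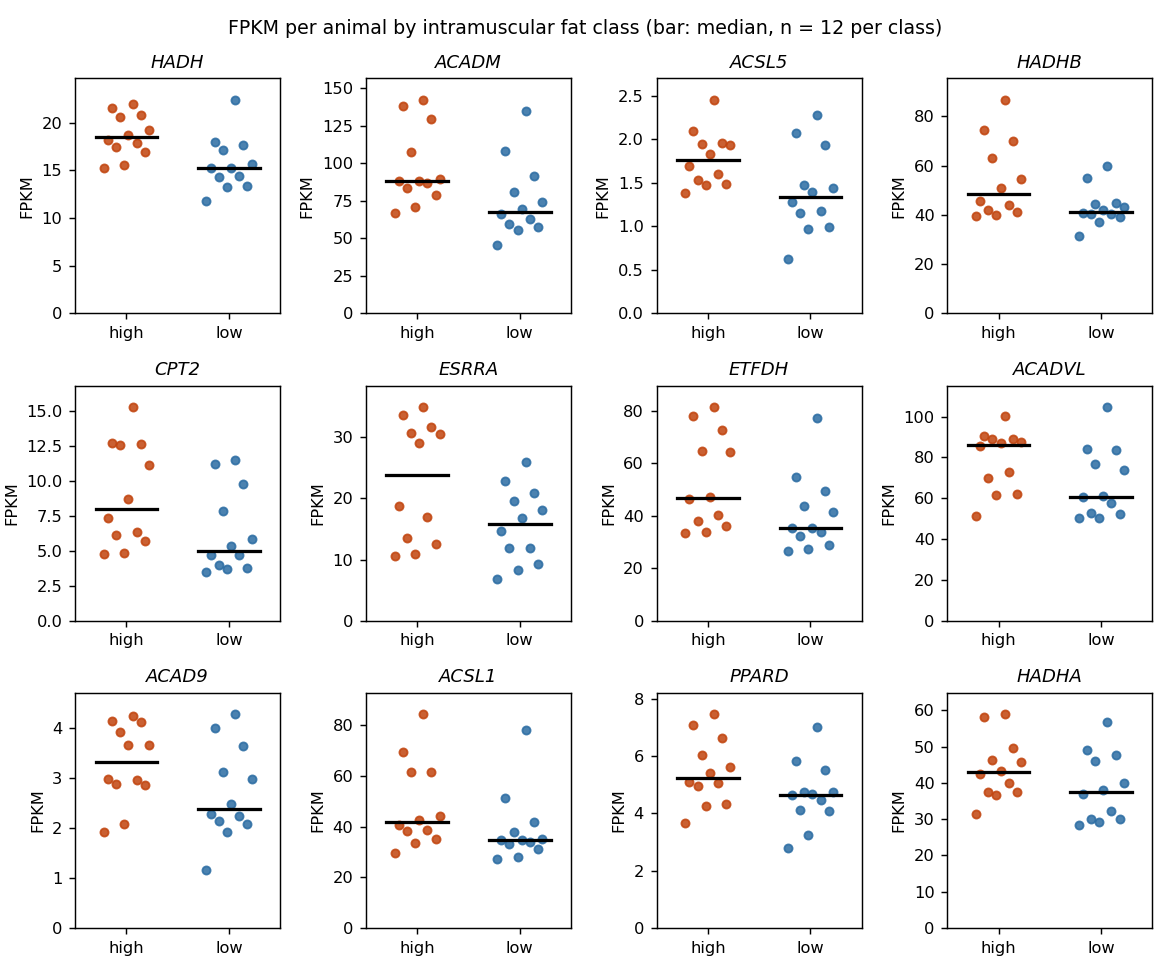
FPKM of the 12 genes with the smallest p, 1 point per animal and a bar at the median, by IMF class (12 animals each). In every panel the classes overlap, and in HADH and ACSL5 every high IMF point lies above the low IMF bar.

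The later steps of the cycle held the smallest p of the list. HADH, the hydroxyacyl-CoA dehydrogenase for shorter chains (chr8:113949279-114005687, Sscrofa11.1, minus strand), ranged from 15.2 to 21.9 FPKM in high IMF (median 18.4) and from 11.8 to 22.4 FPKM in low IMF animals (median 15.2). Again all 12 high IMF animals were above the median of the low class, and 6 animals of that class lay below the lowest high one. The log2 fold change was 0.25, a ratio of 1.19 (SE 0.0907, limma p = 0.0119, adjusted p = 0.521). That p ranked HADH at place 267 of 11757 genes.

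HADHB, the thiolase subunit of the trifunctional protein, ranged from 39.5 to 86.7 FPKM in high (median 48.3) and from 31.5 to 59.8 FPKM in low IMF animals (median 41.2), with a log2 fold change of 0.29 (SE 0.129, limma p = 0.0315, adjusted p = 0.617). HADHA, the subunit with the hydratase and dehydrogenase activities, ranged from 31.4 to 58.9 FPKM in high (median 42.9) and from 28.3 to 56.7 FPKM in low IMF animals (median 37.5), with a log2 fold change of 0.19 (SE 0.122, limma adjusted p = 0.717). The genes lie on opposite strands and overlap by 422 bases at chr3:112752617-112753038. Whether the counting used strand was not given in the sources used here, so reads from the overlap cannot be told apart. The thiolase ACAA2 had a log2 fold change of 0.17, the hydratase ECHS1 of 0.021 and HSD17B10, a dehydrogenase also active on branched-chain and steroid substrates, of -0.06. ECHS1 had the lowest coefficient of variation of the list (SD over mean, 15.8%), at 22.2 ± 3.21 and 22 ± 3.89 FPKM in high and low IMF muscle (SD, n = 12 each), and its difference turned to -0.089 under TMM scaling.

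The enzymes that prepare unsaturated chains for the cycle, ECI1, ECI2 and DECR1, had log2 fold changes of 0.11, 0.16 and 0.12 (limma, lowest adjusted p = 0.738). ECI1 turned to -0.0014 under TMM scaling. In the peroxisomal group, HSD17B4, which hydrates and dehydrogenates very long chains, had a log2 fold change of 0.23 (SE 0.193), ACOX3, an oxidase for branched chains, of -0.0028 (SE 0.190) and the thiolase ACAA1 of -0.13 (SE 0.295).

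Electrons from the dehydrogenases pass through the flavoprotein ETFA-ETFB to ETFDH, which delivers them to ubiquinone. ETFDH ranged from 33.5 to 81.3 FPKM in high IMF (median 46.7) and from 26.4 to 77.1 FPKM in low IMF animals (median 35.2). In 10 of 12 high IMF animals it exceeded the low IMF median. The fitted ratio was 1.3 (log2 fold change 0.38, SE 0.181, limma p = 0.0475, adjusted p = 0.643). Its unadjusted p was not under 0.05 with 1 animal per shared 9 digits, nor with identifier set or the Y-linked gene EIF1AY as a term. ETFA and ETFB had log2 fold changes of 0.14 and 0.11, with limma adjusted p of 0.829 and 0.836.

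Among the regulators, ESRRA, a nuclear receptor of mitochondrial genes, had the largest fitted difference. It ranged from 10.6 to 34.9 FPKM in high IMF (median 23.9) and from 6.87 to 26.0 FPKM in low IMF animals (median 15.7). Of the high IMF animals, 6, between 29.0 and 34.9 FPKM, lay above every low IMF animal, and the other 6 fell inside the low IMF range. The log2 fold change was 0.50, a ratio of 1.41 (SE 0.236, limma p = 0.0453, adjusted p = 0.642). It was 0.87 (SE 0.310) in set A and 0.12 (SE 0.310) in set B, and the difference between the sets was -0.75 (SE 0.439, limma p = 0.0989, adjusted p = 0.998). In set A, low IMF animals 2 and 8, at 6.87 and 9.23 FPKM, share 9 identifier digits. The unadjusted p of ESRRA was not under 0.05 with 1 animal per shared 9 digits or without low 10 and high 7. The same held with array weights and with the Y-linked gene EIF1AY as a term.

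The PPAR receptors overlapped between the classes. PPARD, the most abundant PPAR of muscle in general, ranged from 3.65 to 7.47 FPKM in high (median 5.25) and from 2.78 to 7.03 FPKM in low IMF animals (median 4.66), with a log2 fold change of 0.20 (SE 0.116, limma adjusted p = 0.704). PPARA ranged from 3.0 to 8.26 FPKM in high (median 5.23) and from 1.25 to 8.75 FPKM in low IMF animals (median 4.49), with a log2 fold change of 0.20 (SE 0.228, limma adjusted p = 0.850). The PPARA value sums a reference transcript on the minus strand and an assembled transcript of 2 exons on the plus strand, which made up 66.6% of it (median over animals) and may not be part of the gene.

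The coactivators were expressed near the lower end. PPARGC1A ranged from 0.495 to 2.34 FPKM in high (median 1.08) and from 0.423 to 2.11 FPKM in low IMF animals (median 0.969), with a log2 fold change of 0.11 (SE 0.15). PPARGC1B ranged from 0.771 to 2.81 FPKM in high (median 1.67) and from 0.905 to 2.89 FPKM in low IMF animals (median 1.97), with a log2 fold change of -0.11 (SE 0.118, 95% interval -0.35 to 0.14). ACACB, the carboxylase that makes malonyl-CoA at the mitochondrion, ranged from 2.79 to 12.1 FPKM in high (median 7.36) and from 0.731 to 9.70 FPKM in low IMF animals (median 7.08), with a log2 fold change of 0.24 (SE 0.232, limma adjusted p = 0.822).

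With transcripts as units, 72 transcripts of the list were tested and none was called, where 0.0187% of all transcripts were. Unadjusted p under 0.05 was reached by 7, all higher in high IMF muscle, against 5.25% of all transcripts, and 0 were lower, against 1.09%. The leading transcript of HADH, ENSSSCT00000049871, carried a median of 58.1% of the gene's FPKM. It ranged from 8.84 to 14.7 FPKM in high IMF (median 12.7) and from 5.42 to 11.2 FPKM in low IMF animals (median 8.45). The low IMF median was again exceeded by all 12 high IMF animals. The log2 fold change was 0.43 (SE 0.109, limma p = 0.000515, adjusted p = 0.352), larger than that of the gene. The other HADH transcripts had log2 fold changes of -0.09 and 0.01. A transcript of ETFDH, ENSSSCT00000060783, had a log2 fold change of 0.65 (SE 0.222, limma adjusted p = 0.559), and a transcript of CPT2, ENSSSCT00000052714, of 0.89 (SE 0.423, limma adjusted p = 0.781). The leading transcripts of these genes had smaller values, 0.31 (SE 0.180) for ETFDH and 0.14 (SE 0.180) for CPT2. The authors' deposited table gives a p-value of 0.000947 for the HADH transcript, and the smallest q-value among the 73 transcripts of the list was 0.676 in its first q-value column.

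PDK4 and CRAT had the largest spread between animals in the list. The median coefficient of variation over the 35 genes was 32.7%, close to the 32.6% of all genes, while it was 145% for PDK4 and 123% for CRAT. PDK4 ranged from 1.48 to 311.7 FPKM in high IMF (median 21.9) and from 2.0 to 120.4 FPKM in low IMF animals (median 25.9). High IMF animal 5 held the highest value, the next was 122.3 FPKM, and 6 animals lay under 10 FPKM. The class means were 58.3 ± 87.5 and 33.4 ± 35.3 FPKM (SD, n = 12 each), and without high IMF animal 5 the high IMF mean was 35.2 ± 37.7. The log2 fold change of 0.42 had an SE of 0.695 (limma adjusted p = 0.912).

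CRAT fell into separate sets of animals that did not follow IMF class. In 6 animals it stood at 70.5 to 164.7 FPKM and in the other 18 at 5.62 to 23.1 FPKM. The 6 were high IMF animals 3, 6 and 12 and low IMF animals 6, 10 and 11, and 5 of them belong to identifier set B. The reference transcript ENSSSCT00000061204 made up 93.2%, 94.5% and 90.6% of CRAT in high IMF animal 3 and low IMF animals 6 and 10. In high IMF animals 6 and 12 and low IMF animal 11 it made up 42.9%, 42.5% and 43.8%.

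**Figure D3:**
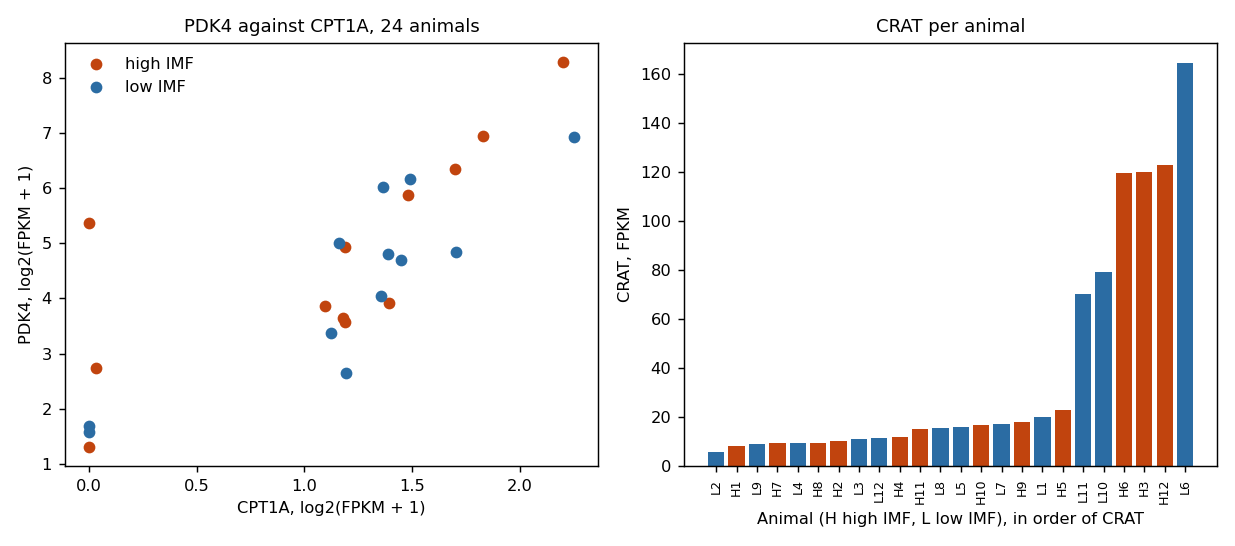
Left, PDK4 against CPT1A as log2(FPKM + 1) in 24 animals coloured by IMF class, with the 4 animals at a CPT1A of 0 on the left edge. Right, CRAT in FPKM per animal in rising order (H high, L low IMF), where 6 animals stand at 70.5 FPKM or more and the other 18 at 23.1 FPKM or less.

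The identifier sets, compared with IMF class in the model, gave 0 called genes in the list and 0% over all genes. At an unadjusted p under 0.05, 2 of 35 genes were higher in set B, ACAA1 (log2 difference 0.65, SE 0.271) and CPT1B (0.53, SE 0.246), against 3.25% of all genes, and 0 were lower, against 3.23%. The difference was positive for 17 of 35, against 54.1% of all genes. The difference of the IMF contrast between the sets was called for no gene, 0% over all genes. It was higher in set B at an unadjusted p under 0.05 for CPT1B, ECI1 and ACAD10, against 0.748% of all genes, and lower for 0, against 2.54%. It was positive for 16 of 35, against 30.7% of all genes.

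CPT1B had the smallest p of all 11757 genes for this difference, at rank 1, and still did not pass the adjustment. In set A it ranged from 1.77 to 5.13 FPKM in high (median 2.82) and from 2.15 to 10.8 FPKM in low IMF animals (median 6.96), 6 animals each. In set B it ranged from 6.60 to 11.5 FPKM in high (median 8.70) and from 3.41 to 6.42 FPKM in low IMF animals (median 4.94). The log2 fold change, high minus low IMF, was -0.90 (SE 0.262) in set A and 0.75 (SE 0.262) in set B. Set A holds the pairs of animals that share 9 identifier digits, which the fit took as independent. Its highest low IMF values, 10.8 and 10.2 FPKM in animals 7 and 6, are 1 such pair. The comparison of the sets was not repeated with 1 animal of each pair. The difference between the sets was 1.65 (SE 0.370, limma p = 0.000173, adjusted p = 0.998), and it was 1.77 under TMM scaling (limma adjusted p = 0.631). The longer CPT1B transcript reaches 278 bases into CHKB, its neighbour in RefSeq on Sscrofa11.1.

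Besides ESRRA, which was positive in both sets, 6 genes had an unadjusted p under 0.05 in the IMF comparison. These 6 were also positive within each set. All 6, and ESRRA, had been picked by their difference in the same animals pooled, so the shared sign is no independent test. The share of all genes positive in both sets was not taken. The log2 fold changes in sets A and B were 0.28 and 0.21 for HADH, 0.49 and 0.28 for ACADM, and 0.12 and 0.34 for ACSL5. They were 0.32 and 0.27 for HADHB, 0.23 and 0.69 for CPT2, and 0.39 and 0.36 for ETFDH, with SEs of 0.132 to 0.303 over the 6 genes.

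ECI1 showed the same direction as CPT1B. Its high IMF animals in set B ranged from 13.2 to 28.7 FPKM (median 26.4) and its low IMF animals from 9.87 to 20.5 FPKM (median 15.3), while in set A the medians were 23.6 and 23.5 FPKM. The log2 fold change was -0.43 in set A and 0.64 in set B, and the difference was 1.07 (SE 0.343, limma adjusted p = 0.998).

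**Figure D4:**
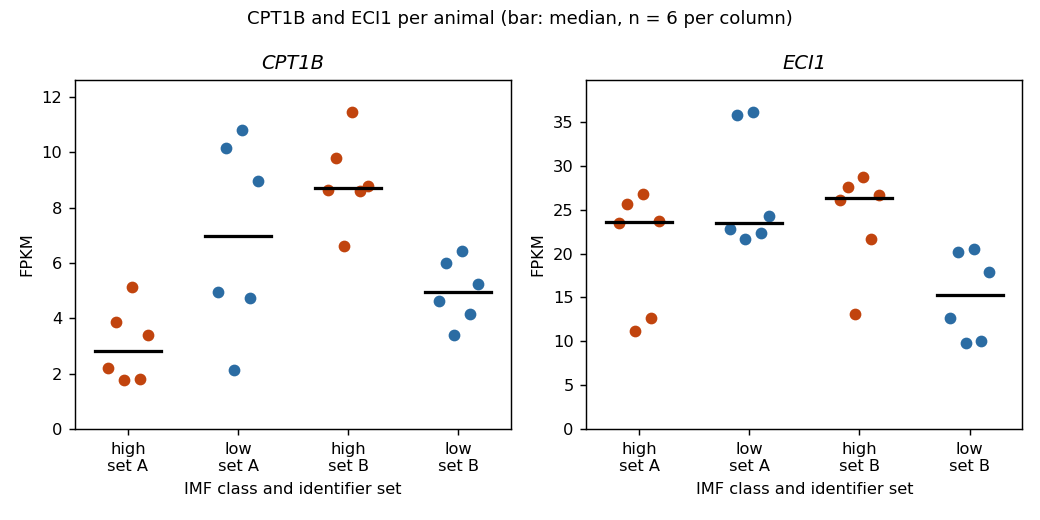
FPKM of CPT1B and ECI1 by IMF class and identifier set, 1 point per animal and a bar at the median (6 animals per column). For CPT1B the high IMF median is 2.82 in set A and 8.70 in set B, on opposite sides of the low IMF medians of 6.96 and 4.94.

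Across the 24 animals, pairs of genes of the list had higher correlations than pairs of all genes. Over the 595 pairs the median Pearson r of log2(FPKM + 1) was 0.24, against 0.12 over all 69107646 pairs of tested genes. An r of at least 0.5 was found in 103 pairs, or 17.3%, against 7.64% of all pairs, and an r of at most -0.5 in 1 pair, or 0.168%, against 0.755%. Two-sided permutation tests with 100000 resamples, adjusted over the 595 pairs, called 81 positive pairs and 1 negative pair, and 1 of the 81 involves CRAT with its separate sets. These counts depended on scaling and on the libraries. Under TMM scaling 33 positive pairs were called, with low 10 and high 7 left out there were 43, and within a class or set of 12 animals there were 1 to 9. The share called over all pairs of genes was not taken. The correlations of all pairs were not computed under these alternatives, so whether the list exceeds them there is not known.

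Among the closest pairs, ACADVL and HADHA, successive enzymes on long chains, had r = 0.87 and rho = 0.82 (permutation p = 1e-05, the smallest that 100000 resamples can give, adjusted p = 0.000744). The r was 0.83 and 0.86 within high and low IMF, 0.93 and 0.78 within sets A and B, and 0.84 without the 2 animals farthest from the ACADVL median. HADHB and ACSL1 had r = 0.85 and rho = 0.74 (permutation, adjusted p = 0.000744), with 0.91 and 0.72 within the classes, 0.89 and 0.81 within the sets, and 0.77 without the 2 farthest animals.

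CPT2 and ACADVL had r = 0.84 and rho = 0.82, with 0.77 and 0.85 within the classes, 0.81 and 0.90 within the sets and 0.84 without the 2 farthest animals. HADHA and HADHB, which overlap on the genome, had r = 0.82 and rho = 0.88, with 0.85 and 0.83 within the classes, 0.89 and 0.76 within the sets and 0.76 without the 2 farthest. HADHB and ETFDH had r = 0.81 and rho = 0.79, with 0.80 and 0.78 within the classes, 0.94 and 0.70 within the sets and 0.74 without the 2 farthest. All 3 pairs had a permutation adjusted p of 0.000744. CPT2, HADHB and HSD17B4 had the highest median r with the other genes of the list, at 0.44, 0.43 and 0.43, and ACSL5 and ECHS1 the lowest, at -0.06 and -0.01.

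**Figure D5:**
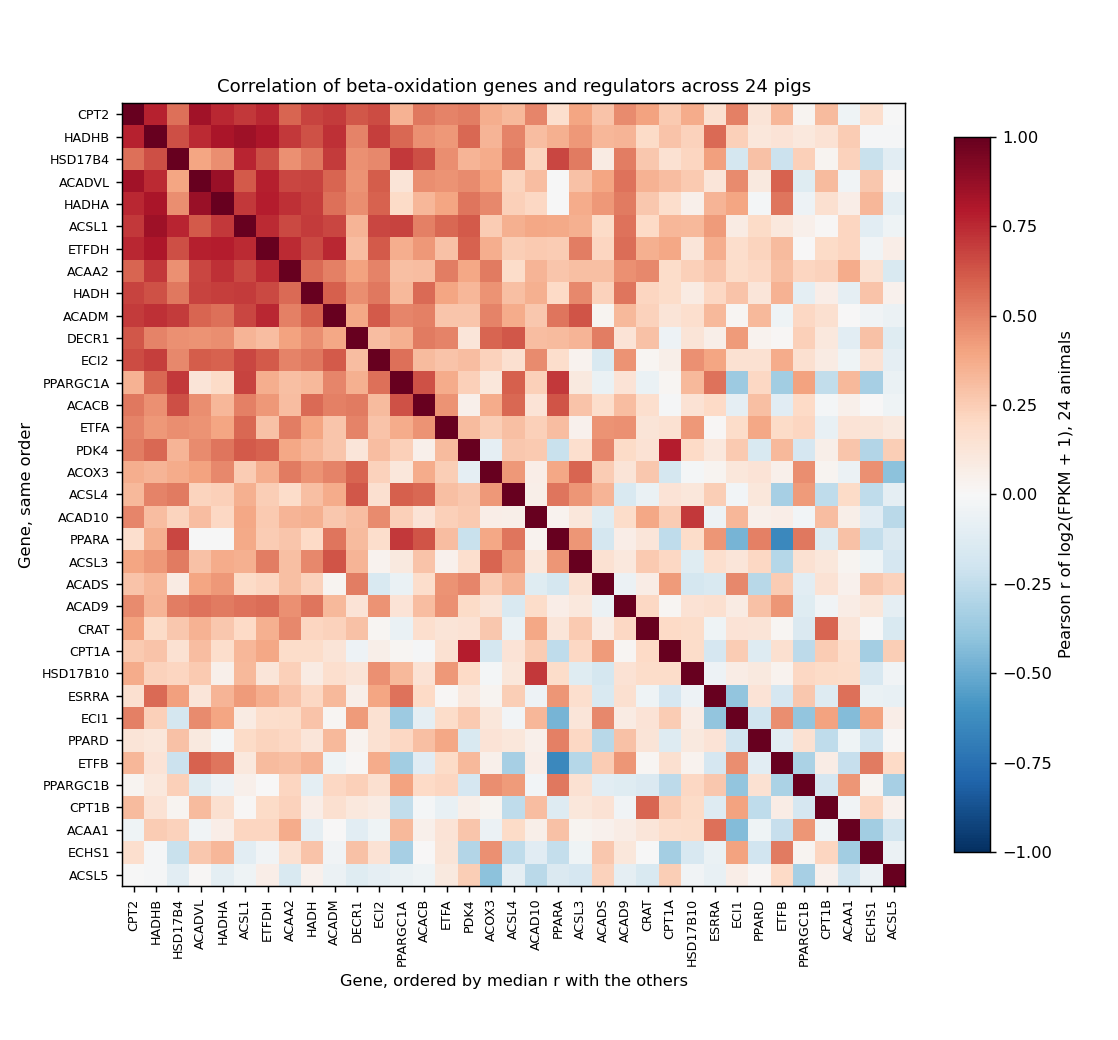
Pearson r of log2(FPKM + 1) across 24 animals for all pairs of the 35 genes, ordered by the median r of each gene with the others, from CPT2 (0.44) to ACSL5 (-0.06). The cells at the top left reach an r of 0.87, for ACADVL with HADHA, and the darkest blue cell is ETFB with PPARA, -0.64.

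The negative pair that was called joined ETFB and PPARA, with r = -0.64 and rho = -0.63 (permutation p = 0.00073, adjusted p = 0.0103). The r was -0.59 and -0.74 within high and low IMF, -0.49 and -0.74 within sets A and B, -0.56 without the 2 farthest animals and -0.81 under TMM scaling. With the PPARA transcripts taken apart, it was -0.73 for the reference transcript and -0.52 for the opposite-strand transcript, and the transcripts had r = 0.89 with each other. The next negative pairs did not pass the adjustment. They were ECI1 with PPARA (r = -0.46), ECI1 with ACAA1 (-0.43), ACOX3 with ACSL5 (-0.41) and ECI1 with ESRRA (-0.40).

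Other pairs were chosen after their values were seen. PDK4 and CPT1A, both known PPAR targets that rise in fasting, had r = 0.78 and rho = 0.76 (permutation adjusted p = 0.000744), with 0.75 and 0.87 within high and low IMF, 0.61 and 0.90 within sets A and B and 0.87 without the 2 animals farthest from the CPT1A median. CPT1A is listed at 0 in high IMF animals 1 and 7 and low IMF animals 4 and 6, where PDK4 was 1.48, 40.3, 2.0 and 2.22 FPKM. In the 20 animals with CPT1A above 0 the r was 0.80. PPARA and PPARGC1A had r = 0.71 and rho = 0.75 (permutation adjusted p = 0.00366), with 0.80 and 0.73 within the classes, 0.63 and 0.75 within the sets and 0.68 without the 2 farthest.

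No gene of the list passed adjustment in its correlation with the adipocyte or slow fibre level, the mean z score of the marker genes (permutation, 70 relations, smallest adjusted p = 0.104 for Pearson's r and 0.0938 for Spearman's rho). ACADM had r = 0.56 and rho = 0.63 with the adipocyte level, with 0.16 within high and 0.63 within low IMF, 0.38 and 0.75 within sets A and B and 0.48 without the 2 farthest animals. With the slow fibre level, ECI2 had r = 0.61 and rho = 0.59, with 0.78 and 0.63 within high and low IMF, 0.51 and 0.68 within sets A and B and 0.39 without the 2 farthest animals. ETFB had r = 0.58 and rho = 0.49 with that level, with 0.28 and 0.69 within the classes, 0.74 and 0.57 within the sets and 0.33 without the 2 farthest. The part of fat cells in the differences between IMF classes was not tested. With the slow fibre level as a term in the model, the log2 fold changes of HADH, ACADM, CPT2 and ESRRA were 0.24, 0.39, 0.45 and 0.49. The mean slow fibre level was 0.0103 in high and -0.0103 in low IMF animals, so this term could hardly move them. The part of fibre type was thereby not tested.

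Other genes of fatty acid oxidation were also mostly positive, and none was called. Of 29 further enzymes and carriers tested, 27 had a positive difference, beside 73.4% of all genes. Their median log2 fold change was 0.18, beside 0.08 over all genes. Under TMM scaling 22 were positive, beside 49.7% of all genes. At an unadjusted p under 0.05, 4 were higher and 1 was lower, against 6.79% and 0.893% of all genes. DBI, which binds acyl-CoA, stood at 66.1 ± 12 against 50.7 ± 10.7 FPKM (SD, n = 12 each) and differed by a log2 fold change of 0.38 (SE 0.114, limma adjusted p = 0.303). ACOT13, a mitochondrial thioesterase, stood at 11.6 ± 4.75 against 7.19 ± 3.53 FPKM and had a log2 fold change of 0.66 (SE 0.216, limma adjusted p = 0.421). SCP2, a peroxisomal thiolase and lipid carrier, and ECHDC3 had log2 fold changes of 0.26 and 0.25.

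Genes known as PPAR targets in muscle, of which 13 were tested with CPT1B and PDK4 among them, were positive in 10 (76.9%), close to the 73.4% of all genes, with a median of 0.25 (0.15 under TMM scaling). LPL, the lipase that frees fatty acids from lipoproteins, stood at 30.1 ± 10.3 against 17.4 ± 4.83 FPKM, a log2 fold change of 0.75 (SE 0.164, limma p = 0.000107, adjusted p = 0.105). FABP3, the fatty acid binding protein of muscle, stood at 16.5 ± 5.51 against 10.1 ± 4.67 FPKM, a log2 fold change of 0.71 (SE 0.214, limma adjusted p = 0.329). UCP2, a mitochondrial carrier, had a log2 fold change of 0.27. LPL is also expressed by fat cells, and the part of fat cells in its difference was not tested.

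General markers of mitochondria were positive in 12 of 12, against 73.4% of all genes, with a median of 0.19, and 5 were higher at an unadjusted p under 0.05, against 6.79%. Under TMM scaling 10 of 12 were positive, against 49.7% of all genes, the median was 0.08 and 0 had an unadjusted p under 0.05. ATP5A1, a subunit of ATP synthase, stood at 224 ± 34.6 against 183 ± 38.3 FPKM, a log2 fold change of 0.30 (SE 0.108, limma adjusted p = 0.517), and COX5B, NDUFB8 and SDHA of the respiratory chain had values of 0.24, 0.21 and 0.22. The size of these differences was close to that of the beta-oxidation list, and whether the lists differ was not tested.

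The remaining lists also held no call. Regulators of mitochondrial biogenesis were positive in 13 of 21 (61.9%), against 73.4% of all genes, with a median of 0.03. At an unadjusted p under 0.05, 2 were higher and 0 lower, against 6.79% and 0.893% of all genes. Under TMM scaling the balance turned, to 7 of 21 positive and a median of -0.02, where 49.7% of all genes were positive. At that p, 1 was then higher and 3 were lower, beside 325 higher and 271 lower of all 11729 genes tested. PPARG, the fat cell PPAR, had the smallest p without that scaling, with a log2 fold change of 0.45 (SE 0.145, limma adjusted p = 0.419). TFB1M, a mitochondrial ribosomal RNA methyltransferase, had 0.18, RXRB -0.32 and GABPB1 -0.14. Pyruvate dehydrogenase and its controls were positive in 7 of 9 (77.8%, median 0.13), also close to 73.4%, led by PDHB at 0.16, DLAT at 0.19, PDP1 at 0.25 and PDK3 at 0.23. The genes of malonyl-CoA and AMPK control were positive in 6 of 7 (85.7%, median 0.17), led by ACACA at 0.35, PRKAG3 at 0.32, CAB39 at 0.20 and MCAT at 0.17. ACACA had means of 0.716 and 0.324 FPKM in high and low IMF muscle, and was tested only through its high IMF values. Under TMM scaling 5 of 6 genes tested from this list were positive. Oxidation of branched-chain amino acids was positive in 9 of 13 (69.2%, median 0.06) and in 4 of 13 under TMM scaling, with DBT at 0.21, PCCB at 0.15, PCCA at -0.39 and IVD at -0.19.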

How the data were processed

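Per the labels, polyA RNA of 24 muscle samples was sequenced. The authors deposited 1 FPKM value per transcript and library, a unit read from the values themselves, since no header names it. HISAT2 2.0.5, StringTie 1.3.3 and the build Sscrofa11.1 come from the submitters' processing notes, which state no role for them, and an annotation release was not given in the sources used here. Per the file headers, the authors' table also gives a fold change as a ratio, a p-value and 3 q-values per transcript. The deposited transcripts are each above 0 in at least 19 of 24 libraries. The deposited columns of exon number and transcript length are plain numbers, and the length was used to estimate depth.

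FPKM was summed per symbol, 1 was added, and the log2 values of 11757 genes (mean FPKM of 0.5 or more) were fitted with limma 3.58.1 (R 4.3.3, mean-variance trend, robust moderation, Benjamini-Hochberg). Fold changes on this scale understate those of low genes. Correlations used Python 3.11.15, numpy 2.4.6 and scipy 1.17.1. Depth was estimated from the step of FPKM times length; 74.1% to 87.1% of 70 to 141 low values per library fell within 0.05 base of a whole number of bases covered. The values are base coverage, so no count model was used. On simulated data for the IMF comparison (11757 genes), 48 of 100 genes with a log2 change of 0.5 and 85 of 100 with 1 were recovered. In the same run 9 unchanged genes were called. Genes were simulated independently, and those of low level were not changed, so the recovery does not cover the lowest genes of the list.

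The genes and lists were chosen with earlier results of these data known. Values by animal are given for the 12 genes of smallest p and for PPARA, PPARGC1A, PPARGC1B, PDK4, CPT1A, CPT1B and ACACB. Up to 4 genes of smallest p are named per further list (1 such gene is not reported here), and the 5 most positive and 5 most negative pairs. Markers of endothelium (5 of 7 positive, median 0.18), macrophages (5 of 6, 0.24), skeletal muscle (3 of 10, -0.08) and fast fibres (5 of 12, -0.14) were also tested, and none was called. Alternatives were TMM or upper quartile scaling, other filters and moderation, array weights, a pseudocount of 0.1, reference transcripts alone, identifier set, EIF1AY (a Y-linked gene) or slow fibre level in the model, keeping 1 animal for each run of 9 identifier digits in a class, and leaving animals out. Sequences were not used here.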

Additional observations from a re-analysis of the deposited data

How the results depend on the processing

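No gene of the list was called under any alternative (limma, smallest adjusted p = 0.121 when 1 animal was left out and 0.198 otherwise). The number with an unadjusted p under 0.05 was 1 under TMM and 1 under upper quartile scaling, where 2.77% and 2.51% of all genes were higher. It ranged from 2 to 10 leaving out each of 24 animals: 2 without high IMF animal 5, 3 without high 8, high 12 or low 2, 4 without high 7, low 4, low 8 or low 11, and 10 without low 10. With array weights, 1 further pathway gene was called, LPL (log2 fold change 0.78, limma adjusted p = 0.0294). With these weights 11.6% of all genes were higher at an unadjusted p under 0.05, against 6.79% in the main fit. The share of all genes called there was not taken. Called positive pairs numbered 33 under TMM, 32 under upper quartile scaling, 43 without low 10 and high 7, 1 within high IMF, 2 within low IMF, 7 within set A and 9 within set B; called negative pairs numbered 0 within high IMF, 0 within low IMF, 0 within set A and 0 within set B. Within a class or set only 12 animals enter, and the share over all pairs of genes was not taken in any of these settings.

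Of 1354 values of single genes, 63 changed sign, in 13 genes. Under TMM, ECHS1 was -0.089, ECI1 -0.0014 and ACSL4 -0.013; under upper quartile scaling, ECHS1 was -0.099, ECI1 -0.011, ETFB -0.0080 and ACSL4 -0.022. ECHS1 was -0.010 and ACOX3 0.024 with array weights, ACOX3 0.015 at a pseudocount of 0.1, and ACADS 0.0028 and ACOX3 0.017 with EIF1AY as a term. With 1 animal per shared 9 digits, CPT1B was 0.069, ACADS 0.061 and ACOX3 0.049. From reference transcripts alone, DECR1 was -0.0056 and ACSL4 -0.072. Without low 10 and high 7, CPT1A was 0.096 and CPT1B 0.024. Each identifier set alone was an alternative chosen after seeing the data, as were the separate PPARA transcripts. In set B, PPARGC1A was -0.072, ACSL4 -0.036, HSD17B10 0.22, CPT1A 0.022, ACAD10 0.39, CPT1B 0.75 and ACADS 0.022; in set A, ECI1 was -0.43, CRAT -0.62, ECHS1 -0.012 and ACOX3 0.15. Leaving out 1 animal, CPT1A ranged from -0.21 to 0.0010, CPT1B from -0.17 to 0.027, ACADS from -0.15 to 0.038, ACAD10 from -0.16 to 0.032, ECHS1 from -0.011 to 0.055, ACOX3 from -0.13 to 0.061 and CRAT from -0.080 to 0.40. The cause of these changes was not tested. No paired analysis was possible because the labels give the animals no shared replicate numbers.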

Other observations

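Low IMF animal 10 held the highest value of the 24 animals in 7 of 35 genes, and in 26.8% of all genes tested. High IMF animal 7 was the highest in 6 (8.95% of all genes), and high IMF animals 5 and 8 in 5 each (3.66% and 6.54%). The lowest value was held by low IMF animals 2 and 4 in 6 genes each (6.70% and 8.13% of all genes) and by low IMF animal 3 in 5 (12.9%). The share of all FPKM in the list was 0.303% in high IMF animal 5, where PDK4 was at its highest, and 0.128% in low IMF animal 2. ACAA1, the peroxisomal thiolase, ranged from 0.0370 to 6.42 FPKM over the animals, and ACAD10 from 0.286 to 4.93 FPKM.

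ACAD10 and HSD17B10, a pair chosen after its values were seen, had r = 0.71 and rho = 0.69 across the 24 animals (permutation adjusted p = 0.00312), with 0.64 and 0.80 within high and low IMF, 0.60 and 0.76 within sets A and B and 0.68 without the 2 animals farthest from the ACAD10 median. PPARGC1A and ESRRA, a coactivator and a receptor known to act together, had r = 0.54 and rho = 0.51 (permutation adjusted p = 0.0488 for r and 0.0701 for rho, which did not pass), with 0.73 within high and 0.23 within low IMF, 0.58 and 0.53 within the sets and 0.42 without the 2 farthest. The leading transcript changed between animals in several genes: ENSSSCT00000017187 of ACSL1 led in 9 of 24 animals and ENSSSCT00000065137 of ACADS in 5, while ENSSSCT00000014241 of ESRRA led in all 24. The FPKM of such isoforms was divided by the assembly and is less certain than the sum.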
